A study of Mus musculus with 3 samples.

Results

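The cornified envelope and granular layer genes comprised 10 genes, Lor, Flg, Cdsn, Krtdap, Sbsn, Dmkn, Calm4, Ly6d, Lgals7 and Fxyd3, out of 19165 genes in the expression matrix, and all 10 had a row. They were chosen by name from a list of genes known from the upper epidermis. Their levels were described in epithelial cells, which were the cells with a UMI (unique molecular identifier, one counted RNA molecule) of at least 3 of the 5 epithelial genes Perp, Trp63, Sfn, Cdh1 and Dsp. This gate held 3195 of 16235 cells. The skin came from the back of male C57BL/6 mice, with no allele named in the labels, and was pooled from several animals into 1 droplet library at each of 3 stages: the embryonic days E13.5 and E16.5 and the postnatal day P0. The fetal skin was dissociated with trypsin and the P0 skin with collagenase IV. Stage, enzyme and library therefore cannot be told apart, and no comparison had a replicate check, an SD or a p-value.

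The outer epidermis is built by keratinocytes that leave the basal layer, switch from Krt5 and Krt14 to Krt1 and Krt10 in the spinous layer, and then turn on granular layer genes. In the granular layer, loricrin and other proteins are crosslinked by transglutaminases under the plasma membrane into the cornified envelope. Profilaggrin is stored in keratohyalin granules and is processed to filaggrin, which bundles keratin filaments. In the mouse this barrier is laid down in the last days before birth, under a transient superficial sheet of flat cells, the periderm.

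Each epithelial cell was placed by its deposited Krt10 value, the natural log of 1 plus Krt10 UMIs per 10000: Krt10 0, Krt10-low (above 0 and below 3.5) and Krt10-high (3.5 or more, which is 32.1 UMIs per 10000). At E13.5 the gate held 412 of 5962 cells, 220 Krt10 0 and 192 Krt10-low, and 0 of 412 were Krt10-high, which allows a share of up to 0.728% (3 counts). At E16.5 it held 1137 of 5208 cells, 288 Krt10 0, 803 Krt10-low and 46 Krt10-high (4.05%, exact 95% interval 2.98 to 5.36). At P0 it held 1646 of 5065 cells, 622 Krt10 0, 921 Krt10-low and 103 Krt10-high (6.26%, 5.14 to 7.54). Within 0.5 of the 3.5 boundary, on either side, lay 10 epithelial cells at E16.5 and 30 at P0, beside 46 and 103 Krt10-high cells.

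Depth and the Krt10 level outside the epithelium bear on these classes. By stage the median UMIs of the epithelial cells were 8880, 14083 and 10022. The Krt10 0 cells were shallower than the Krt10-low cells at each stage (6824.5 against 11402, 12799.5 against 15145, and 7859 against 11867). Levels are given as CPM, the UMIs of a gene per 1000000 UMIs summed over the cells of a group. Krt10 was also found at 37.0, 85.2 and 67.6 CPM in cells with none of the 5 epithelial genes, so that the step from 0 to a small Krt10 value lay near the level outside the epithelium, whereas Krt10-high cells held 13600 CPM at E16.5 and 16731 at P0. Mitochondrial RNA made up 6.69% of the UMIs of Krt10-high cells at E16.5 against 3.56% of those of Krt10 0 cells, and 3.42% against 3.37% at P0. Dermal marker RNA was present in the gate at every stage (2540, 5550 and 2722 CPM over 6 of 6 genes), and its part in the values below was not tested. Libraries shared 32 to 44 cell barcodes, and at most 2 of these were epithelial in both libraries.

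Of the 10 genes, 9 had a promoter entry in RefSeq (GRCm38.p6, the assembly also called mm10). Ly6d had none. The 250 bases before the start were searched on both strands for 4 motifs: TGANTCA, the binding motif of AP-1 (Fos and Jun family) factors; TATAAA, the TATA box; GCCNNNGGC, the motif of AP-2 factors; and CACCC, an element bound by Klf factors. TGANTCA was found for 5 of these 9 genes, Lor, Flg, Sbsn, Dmkn and Krtdap, against 7.82% of the 27025 genes with a promoter entry (6.75% of 32851 promoters). TATAAA was found for 3 of 9 (Lor, Flg and Krtdap) against 14.3% of genes, GCCNNNGGC for 0 of 9 against 15.4%, and CACCC for 7 of 9 against 54.5%. Genes with several entries have more chances of a match, and a match is a run of letters, not a tested binding site. The 5 promoters with TGANTCA and that of Calm4, which had none although its level also differed widely between the Krt10 classes, are shown 5′ to 3′ on the strand of the gene, with the match in capitals.
Lor: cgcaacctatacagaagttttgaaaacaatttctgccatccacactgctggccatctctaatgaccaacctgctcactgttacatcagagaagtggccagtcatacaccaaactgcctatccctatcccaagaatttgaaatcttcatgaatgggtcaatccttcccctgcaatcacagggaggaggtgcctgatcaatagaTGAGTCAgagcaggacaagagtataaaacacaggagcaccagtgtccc
Flg: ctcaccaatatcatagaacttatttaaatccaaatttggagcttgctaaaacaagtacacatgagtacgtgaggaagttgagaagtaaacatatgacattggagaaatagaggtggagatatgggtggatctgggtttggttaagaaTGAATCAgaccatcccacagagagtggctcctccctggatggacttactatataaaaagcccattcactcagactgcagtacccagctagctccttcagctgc
Sbsn: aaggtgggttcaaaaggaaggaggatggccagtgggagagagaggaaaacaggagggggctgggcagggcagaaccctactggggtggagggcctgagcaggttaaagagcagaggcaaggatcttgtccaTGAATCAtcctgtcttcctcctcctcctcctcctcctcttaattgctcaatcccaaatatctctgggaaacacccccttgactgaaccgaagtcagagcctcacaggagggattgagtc
Dmkn: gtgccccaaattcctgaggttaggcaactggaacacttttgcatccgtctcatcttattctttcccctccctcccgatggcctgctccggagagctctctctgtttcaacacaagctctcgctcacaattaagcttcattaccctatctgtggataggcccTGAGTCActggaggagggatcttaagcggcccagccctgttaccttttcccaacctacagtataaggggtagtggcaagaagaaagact
Krtdap: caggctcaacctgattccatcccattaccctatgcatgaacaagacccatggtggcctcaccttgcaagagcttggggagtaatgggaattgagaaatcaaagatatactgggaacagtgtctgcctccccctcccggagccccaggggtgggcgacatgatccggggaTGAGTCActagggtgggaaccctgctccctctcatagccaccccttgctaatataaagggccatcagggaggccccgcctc
Calm4: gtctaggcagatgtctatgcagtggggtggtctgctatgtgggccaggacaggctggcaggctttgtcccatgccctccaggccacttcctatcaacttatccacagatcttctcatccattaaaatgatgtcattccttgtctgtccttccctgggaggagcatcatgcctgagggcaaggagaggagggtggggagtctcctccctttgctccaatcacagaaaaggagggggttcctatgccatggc
The windows lie at chr3:92083143-92083392 (minus strand) for Lor, chr3:93273296-93273545 for Flg, chr7:30751221-30751470 for Sbsn, chr7:30763506-30763755 for Dmkn, chr7:30787655-30787904 for Krtdap and chr13:3837507-3837756 for Calm4, the last 5 on the plus strand. The match began at base -48 for Lor, -103 for Flg, -119 for Sbsn, -89 for Dmkn and -81 for Krtdap, counting back from the start. The other entry of Dmkn with a separate start (chr7:30776155-30776404) also held TGAGTCA, at base -82. In Lor and Krtdap a TATAAA stood nearer to the start, at bases -27 and -30, and in Flg at -53.

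By position, the genes fell into a few groups. Sbsn (chr7:30751471-30756134), Dmkn (chr7:30763756-30781063) and Krtdap (chr7:30787896-30791097) were neighbours on the plus strand within 39.6 kb (GENCODE M21, GRCm38), with gaps of 7621 and 6832 bases. Fxyd3 (chr7:31068172-31076704) and Lgals7 (chr7:28863853-28866284) were on the same chromosome but apart from them. Lor (chr3:92080271-92083142) and Flg (chr3:93273523-93293686) lay 1190 kb apart, in the region known as the epidermal differentiation complex. Calm4 (chr13:3837757-3838673), Ly6d (chr15:74762056-74763620) and Cdsn (chr17:35552128-35557180) each stood alone.

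Across the stages, the genes as a group were far higher at E16.5 than at E13.5. Together the 10 genes took 0.0343%, 0.671% and 1.12% of the UMIs of epithelial cells at the 3 stages in order, against 0.00278%, 0.0318% and 0.0335% in cells with none of the 5 epithelial genes. Intervals cover counting error only. Because the 3′ method counts one tag per molecule, CPM was compared between groups for the same gene. From E13.5 to E16.5, 8 of the 8 genes with at least 50 UMIs in both groups together were at least 2-fold higher, against 7.44% of the 11806 genes counted in the same way. From E16.5 to P0, 4 of 9 were at least 2-fold higher against 6.1% of 12452 genes, and 1 of 9, Lor, was at least 2-fold lower against 14%. A gene near 0 in one group reached the minimum of 50 UMIs only through the other, so these counts describe only the genes that could be read and support nothing on the rest. Flg, 1 of the 4 genes higher at P0, had 97 UMIs at P0 and 0 at E16.5. Without its richest cell 40 UMIs were left at P0, under the minimum.

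**Figure D1:**
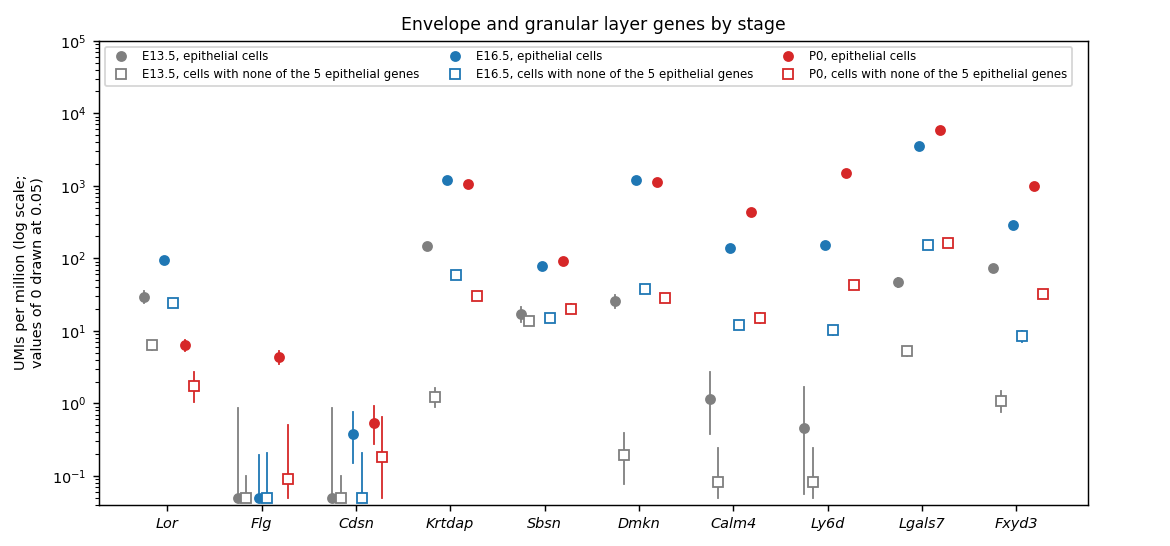
CPM (log scale, values of 0 drawn at 0.05) of each gene in epithelial cells (filled circles) and in cells with none of the 5 epithelial genes (open squares) at E13.5 (grey), E16.5 (blue) and P0 (red), with exact 95% Poisson intervals. Most genes were higher at E16.5 than at E13.5, Lor was lower again at P0 (6.33 against 95.3), and Sbsn at E13.5 sat close to its level outside the epithelium.

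Loricrin, the main protein of the cornified envelope, was measured at 29.4 CPM in epithelial cells at E13.5 (127 UMIs), 95.3 at E16.5 (1784 UMIs) and 6.33 at P0 (142 UMIs). E16.5 thus stood highest and P0 lowest, 0.0664 times E16.5 (95% interval 0.0556 to 0.0788). Cells with none of the 5 epithelial genes held 6.32, 24.5 and 1.71 CPM, which was 21.5%, 25.7% and 27.0% of the epithelial level. A few cells carried the E16.5 level: the richest 1 of the 1137 cells held 875 of the 1784 UMIs and the richest 3 held 64.8%, and without the richest cell of each stage the ratio of E16.5 to E13.5 went from 3.24 (2.70 to 3.91) to 1.70, under 2-fold. With a gate of 4 of the 5 genes it was 1.01. At P0 against E16.5 the ratio without the richest cell was 0.128, and with every cell thinned to 3500 UMIs it was 0.211. At E13.5 the richest cell held 3.94% and no epithelial cell more than 5 UMIs.

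The Lor-rich cells at E16.5 were looked at one by one, after their values were seen. Of 6 cells with at least 50 Lor UMIs, 5 passed the gate and 1, with 587 Lor UMIs, had 2 of the 5 epithelial genes. The first 2 gave 10.1% and 8.88% of all their UMIs to Lor (875 of 8633 and 587 of 6610). Both had an intermediate Krt10 value (3.36 and 3.44), 0 UMIs of Krt14, Ly6d and Fxyd3, and few of Lgals7 (7 and 6), beside 31 and 15 of Krtdap and 12 and 8 of Calm4. The next, with 192 Lor UMIs and a Krt10 value of 4.07, also had 80 Calm4 UMIs, 12 of Ivl (involucrin, another envelope protein), 2 of Ly6d and 0 of Krt14. Another held 89 Lor UMIs with 32 of Calm4 at a Krt10 value of 2.54, and another 58 with 70 of Ly6d, 225 of Krtdap and 195 of Lgals7 at a Krt10 value of 5.34. Hrnr, a filaggrin-type protein of the upper epidermis, was found in all 6 cells (1 to 24 UMIs), and Flg in 0 of 6. The last cell, with 89 Lor UMIs, differed from the others: it had a Krt10 value of 0.614, 472 Krt4 and 321 Krt19 UMIs, both markers of periderm, 944 UMIs of the envelope gene Sprr1a and 144 of Sbsn.

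In the Krt10 0 cells, Lor at E16.5 was close to its level outside the epithelium. It was at 23.6 CPM in Krt10 0 cells, 100 in Krt10-low and 388 in Krt10-high cells (290 UMIs), a ratio of 16.48 (13.0 to 21.02) between the Krt10-high and Krt10 0 cells. The Krt10 0 level lay beside the 24.5 CPM of cells with none of the 5 epithelial genes, and the share of cells with a Lor UMI, with every cell thinned to 3500 UMIs, was 8.68% in Krt10 0 cells, 8.70% in cells with none of the 5 genes and 7.89% in endothelial cells (unthinned 24.3%, 21.2% and 26.6% at median depths of 12799.5, 9806 and 15829 UMIs). In the Krt10-high cells it was 21.7%. Without the richest cell, 98 Lor UMIs were left among the Krt10-high cells (132 CPM), and the ratio became 6.91. Over the settings tried it ran from 4.77 to 61.7. At P0 the 3 classes held 30, 98 and 14 Lor UMIs (5.00, 6.56 and 9.32 CPM), too few in the Krt10-high and Krt10 0 cells together to be counted in the comparison, and no epithelial cell held more than 3.

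Profilaggrin (Flg) was absent from the counts at E13.5 and E16.5, with 0 UMIs in any cell of either library. Over the epithelial cells the limit that a count of 0 allows was 0.695 CPM at E13.5 and 0.160 CPM at E16.5. At P0 there were 103 UMIs, of which 97 were epithelial (4.32 CPM). Those 97 came from 8 cells, 1 of which held 57 and the next 21. In Krt10-high cells Flg was at 55.9 CPM (84 UMIs in 4 of 103 cells) against 0.334 CPM in Krt10 0 cells (2 UMIs), a ratio of 168 with a wide interval (44.98 to 1407) that was 41.3 in cells of at least 2500 genes and 6.38 with 10 added to each CPM, and 27 UMIs (18.1 CPM) were left in the Krt10-high cells without the richest cell. The 4 cells with at least 5 Flg UMIs also held 82 to 644 UMIs of Krt79, a keratin of the upper hair follicle, with 38 to 213 of Calm4 and 22 to 224 of Ly6d. Their Krt10 values were 3.42 to 5.65, and 0 to 3 Lor UMIs were found in each.

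Corneodesmosin (Cdsn), the adhesive protein laid over desmosomes of the cornified layer, was hardly captured. It had 0, 7 and 12 UMIs in the epithelial cells of the 3 stages (0, 0.374 and 0.535 CPM), under the 50 UMIs needed for any comparison. Of the 7 at E16.5, 4 were in 1 cell, the Lor-positive cell with Krt4 and Krt19. At P0 the 12 UMIs were spread over 9 cells, and 3 of them were in Krt10-high cells.

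Among the 3 secreted proteins, Krtdap was already well above its background at E13.5 and Sbsn was not. Krtdap, a small secreted protein of differentiating keratinocytes, was at 149 CPM in epithelial cells at E13.5 (643 UMIs), 1208 at E16.5 and 1060 at P0. Dmkn (dermokine) was at 25.5, 1208 and 1113 CPM, and Sbsn (suprabasin) at 16.9, 78.2 and 90.9 CPM. From E13.5 to E16.5 the ratios were 8.11 (7.497 to 8.78) for Krtdap, 47.4 (39.3 to 57.7) for Dmkn and 4.62 (3.65 to 5.93) for Sbsn. With the level in cells with none of the 5 epithelial genes subtracted, an alternative added after seeing the data, the Sbsn ratio was 19.0. From E16.5 to P0 all 3 were within 2-fold, at 0.877, 0.921 and 1.16.

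At E13.5 Krtdap had the highest level of the 10 genes. Of its 808 UMIs in the library, 79.6% were in the epithelial cells, which were 6.91% of the cells, and the level outside (1.23 CPM) was 0.826% of that inside. By contrast 10.1% of the 726 Sbsn UMIs were epithelial, and Sbsn was nearly as high in cells with none of the 5 epithelial genes (13.6 CPM) as in the gate. With thinned cells 15.8% of epithelial cells held a Krtdap UMI against 0 of 200 endothelial cells, which allows up to 1.5%. For Sbsn the values were 6.55% of epithelial cells, 4.68% of cells with none of the 5 genes and 2.00% of endothelial cells. In 16 epithelial cells with at least 10 Krtdap UMIs (chosen after seeing the values, 423 of the 643 UMIs), Dmkn was found in 15, Fxyd3 in 15, Lgals7 in 12 and Krt10 in 15, at up to 18, 8, 13 and 8 UMIs, while Ly6d, Flg and Cdsn were at 0. The basal keratin gene Krt14 was found in 15 of these cells, at 373 CPM against 630 CPM in all epithelial cells of E13.5. The 16 cells were chosen by UMIs and not thinned, so depth bears on these counts of cells.

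All 3 were higher in Krt10-high than in Krt10 0 cells at both stages. Krtdap held 962, 973 and 6948 CPM in Krt10 0, Krt10-low and Krt10-high cells at E16.5, and 462, 733 and 6700 at P0. The Krt10-high level was 7.22 times the Krt10 0 level at E16.5 (6.93 to 7.53) and 14.5 times at P0 (13.9 to 15.1). The Krt10-high levels themselves were nearly the same at both stages (ratio of P0 to E16.5 0.964, 0.932 to 0.997), and the Krt10 0 level was lower at P0 (0.481, 0.458 to 0.505). Sbsn went from 42.6 and 51.2 to 773 CPM at E16.5 and from 40.4 and 59.7 to 603 CPM at P0, ratios of 18.1 (15.3 to 21.6) and 14.9 (13.0 to 17.3). Cells with none of the 5 epithelial genes held 14.9 and 20.3 CPM of Sbsn, and with that level subtracted the ratios were 27.3 and 29.0. Dmkn went from 1027 and 1121 to 3810 CPM at E16.5 and from 680 and 975 to 4211 CPM at P0, ratios of 3.71 (3.54 to 3.89) and 6.19 (5.95 to 6.44). In Krt10-high cells every cell held Krtdap and Dmkn at both stages, with a lowest, median and highest cell of 773, 6968 and 16251 CPM for Krtdap at E16.5 and 1241, 6508 and 16532 at P0.

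Calm4, a calmodulin-like calcium-binding protein of differentiated keratinocytes, differed widely with both stage and Krt10. Epithelial cells held 5 UMIs at E13.5 (1.16 CPM), 2568 at E16.5 (137 CPM) and 9799 at P0 (437 CPM), so that P0 was 3.18 times E16.5 (3.05 to 3.33). In Krt10 0, Krt10-low and Krt10-high cells it was at 74.2, 102 and 1124 CPM at E16.5 and at 105, 192 and 4189 CPM at P0. The ratio of the Krt10-high to the Krt10 0 cells was 15.1 (13.2 to 17.3) at E16.5 and 39.7 (36.6 to 43.2) at P0. In cells thinned to 3500 UMIs it was 7.35 and 26.3, and at E16.5 it was 23.8 with a gate of 2 epithelial genes. The Krt10-high cells differed widely among themselves: at E16.5 the lowest held 0, the median 373 and the highest 12498 CPM, and at P0 54.7, 2629 and 15576 CPM.

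Ly6d, a GPI-anchored surface protein of the Ly6 family, had 2, 2821 and 33474 UMIs in the epithelial cells of the 3 stages (0.464, 151 and 1492 CPM). P0 was 9.90 times E16.5 (9.53 to 10.3), the largest ratio between these stages among the 8 genes with at least 50 UMIs that had UMIs at both. At E16.5 its level was close to background without Krt10 and high with it: 16.8 CPM in Krt10 0 cells (10.2 in cells with none of the 5 epithelial genes), 52.5 in Krt10-low and 2705 in Krt10-high cells. That ratio of 161 (126 to 208) was above those of 99.9% of the 8091 genes counted, and it ran from 87.3, with all cells of a Krt10 value below 2 as the low group, to 410, with the level in cells with none of the 5 genes subtracted. At P0 the Krt10 0 cells already held 618 CPM, 36.8 times their E16.5 level (28.9 to 47.5), and the Krt10-low and Krt10-high cells 1156 and 8325 CPM. The ratio of Krt10-high to Krt10 0 cells was therefore smaller at P0, 13.48 (13.0 to 14.0). In thinned cells, 48.1% of Krt10 0 cells at P0 held a Ly6d UMI against 15.5% of endothelial cells (unthinned 61.3% and 35.3% at median depths of 7859 and 9414.5 UMIs), and at E16.5 4.17% against 2.34%.

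Galectin-7 (Lgals7), a lectin of stratified epithelia, was the most abundant of the 10 genes after E13.5. It was at 46.8 CPM in epithelial cells at E13.5 (202 UMIs), 3540 at E16.5 and 5955 at P0. The first step was 75.6-fold (65.9 to 87.2) and the second 1.68-fold (1.67 to 1.70). Krt10 0 cells already held 3249 CPM at E16.5 and 4413 at P0, and 92.7% and 97.4% of them had a UMI after thinning. Lgals7 was also the gene most often found outside the epithelium: 39.2% and 45.7% of thinned endothelial cells held a UMI, although the level in cells with none of the 5 epithelial genes (151 and 163 CPM) was 4.26% and 2.74% of the epithelial one. Krt10-high cells held 9721 CPM at E16.5 and 17668 at P0, 2.99 (2.91 to 3.08) and 4.004 (3.94 to 4.07) times the Krt10 0 level.

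Fxyd3, a regulator of the sodium-potassium pump, was the only gene counted that did not pass 2-fold between Krt10-high and Krt10 0 cells, at E16.5 or at P0. By stage it went from 73.2 CPM at E13.5 to 291 at E16.5 and 1005 at P0, ratios of 3.97 (3.54 to 4.46) and 3.46 (3.36 to 3.56). Krt10 0, Krt10-low and Krt10-high cells held 297, 284 and 374 CPM at E16.5 and 988, 1036 and 764 CPM at P0. The ratios of Krt10-high to Krt10 0 cells were 1.26 (1.10 to 1.44) and 0.774 (0.726 to 0.824), on opposite sides of 1. With cells thinned to 3500 UMIs the E16.5 ratio was 0.791, and with a gate of 2 epithelial genes it was 2.11. At E13.5 it was the gene found in most epithelial cells, 22.3% of them after thinning and 41.3% before, against 0 of 200 and 3.5% of endothelial cells.

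Taking the 10 genes together, 7 of the 8 with at least 50 UMIs were at least 2-fold higher in Krt10-high than in Krt10 0 cells at E16.5 (Lor, Krtdap, Sbsn, Dmkn, Calm4, Ly6d and Lgals7) against 7.55% of 8091 genes. At P0 it was also 7 of 8, with Flg in place of Lor, against 6.41% of 8876 genes. Flg reached the minimum only through the Krt10-high cells (84 against 2 UMIs). Without the richest cell of each group 27 and 0 UMIs were left, under the minimum. Over the counted genes of the 10, the median ratios were 11.2 and 14.0, beside 0.933 and 0.812 over all genes counted. The 5 epithelial genes that set the gate were higher in the same comparison. Of these, 4 of 5 were at least 2-fold higher at each stage, with median ratios of 4.08 and 3.49. At E16.5 the ratios of Dmkn (3.71) and Lgals7 (2.99) lay below that median, so a rise of this size was not particular to the 10 genes. With a gate of 2 epithelial genes the E16.5 ratios of Krtdap, Dmkn and Lgals7 were 11.8, 6.16 and 4.99. Between Krt10-low and Krt10 0 cells at P0 it was 0 of 8, with ratios from 1.05 for Fxyd3 to 1.87 for Ly6d, against 0.899% of 11009 genes. Nearly all Krt10-low cells lay below a Krt10 value of 2 (884 of 921 at P0 and 774 of 803 at E16.5), near the Krt10 level outside the epithelium. Calm4 and Ly6d did pass 2-fold there with a Krt10 boundary of 4, with a gate of 2 epithelial genes or with cells of at least 2500 genes.

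Several markers of other lineages differed in the same comparison, in which 12.3% of all genes at E16.5 and 20% at P0 were at least 2-fold lower. The dermal 2 of 6 at P0 is too small a count to set apart from that share. Dermal markers summed to 5457 CPM in Krt10 0 and 2650 in Krt10-high cells at E16.5 (4 of 6 at least 2-fold lower) and to 3530 and 1776 CPM at P0 (2 of 6 lower). Schwann cell and melanocyte markers summed to 112 and 9.38 CPM at E16.5 (3 of 3 counted lower) and to 429 and 16.6 CPM at P0 (2 of 2). Immune markers summed to 22.6 and 25.5 CPM at E16.5 and to 102 and 6.66 CPM at P0 (4 of 4 lower), endothelial markers to 141 and 72.3 CPM and to 34.7 and 10.7 CPM, and erythroid markers to 1134 and 1043 CPM and to 859.7 and 251 CPM. An other-lineage filter kept cells with at most 1% of their UMIs in Col1a1, Col1a2 and Col3a1. They also had at most 1 UMI of the endothelial, immune, muscle, Schwann cell and melanocyte markers together. Erythroid genes were not screened, and cells with some dermal RNA could pass. In the cells kept (32 Krt10-high cells at E16.5 and 90 at P0), the ratios of the 7 genes ran from 2.46 for Lgals7 to 129 for Ly6d at E16.5 and from 3.65 for Lgals7 to 141 for Flg at P0. Those of Fxyd3 were 0.971 and 0.721.

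**Figure D2:**
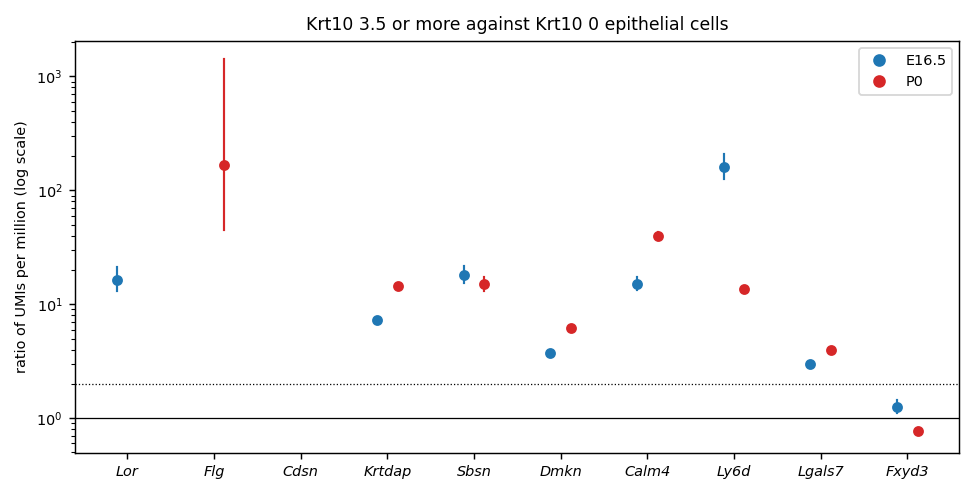
Ratio of the CPM in Krt10-high to Krt10 0 epithelial cells (log scale) at E16.5 (blue) and P0 (red), with exact 95% conditional intervals, for the genes with at least 50 UMIs in both groups together. The solid line marks 1 and the dotted line 2. Only Fxyd3 lies under the dotted line at both stages, and Ly6d has the largest ratio at E16.5 (161).

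The finer steps of Krt10 showed where the levels changed. Between a Krt10 value of 0 and one above 0 and below 2, the level of Krtdap, Dmkn and Lgals7 at E16.5 differed little (962 and 907, 1027 and 1081, 3249 and 3238 CPM). From 2 upward the levels were higher bin by bin: Krtdap at P0 was at 664 CPM below 2, then 2697, 4805 and 8847 CPM in cells of 2 to below 3.5, 3.5 to below 5 and 5 or more (37, 52 and 51 cells). Calm4 had 170, 825, 2530 and 6067 CPM in the same bins. Ly6d was at 1048, 4219, 7055 and 9763 CPM and Lgals7 at 5169, 11840, 14563 and 21185 CPM. Fxyd3 was lower from bin to bin, at 1040, 930, 809 and 714 CPM. At E16.5 Lor peaked in the bin of 2 to below 3.5 (1924 CPM, 29 cells), but 875 of its 979 UMIs there were in 1 cell, and 208 CPM was left without it. The bin of 5 or more at E16.5 held 16 cells, under the minimum of 20, and is only drawn.

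**Figure D3:**
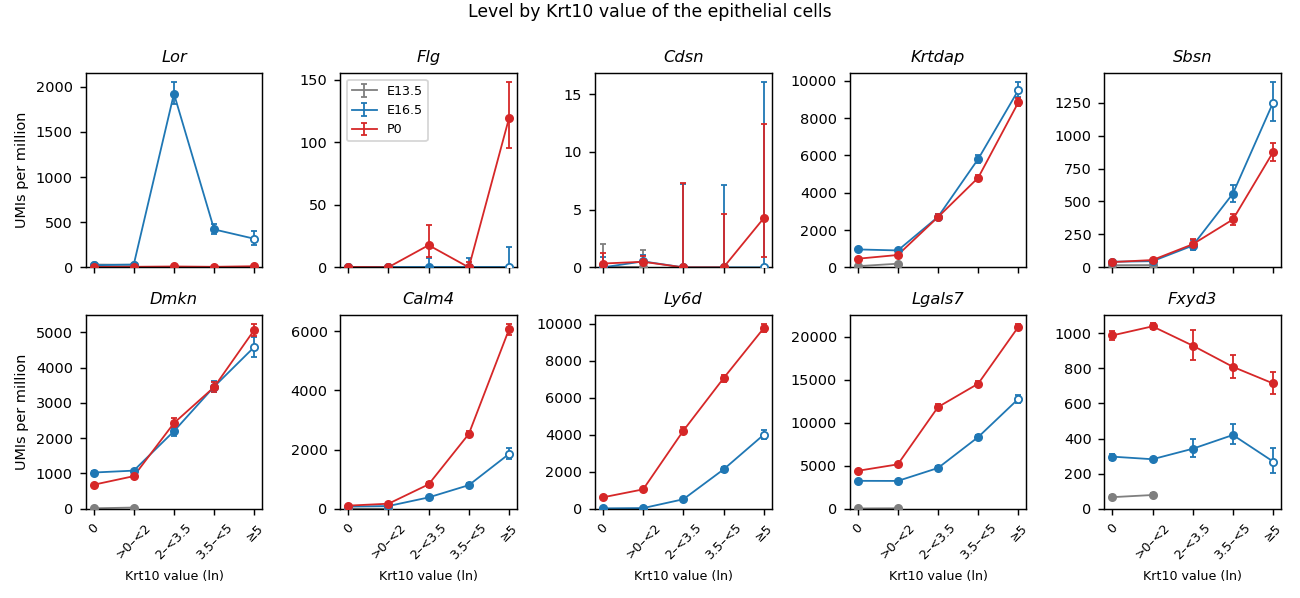
CPM of each gene in epithelial cells by Krt10 value (5 bins) at E13.5 (grey), E16.5 (blue) and P0 (red), with exact 95% Poisson intervals. The open circle is the E16.5 bin of 16 cells, and an E13.5 bin of 3 cells is not drawn. Krtdap, Sbsn, Dmkn, Calm4, Ly6d and Lgals7 are higher in each bin from 2 upward, Fxyd3 is not, and the Lor peak at E16.5 rests on 1 cell.

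Cell by cell, several of the genes were found in the same Krt10-high cells. In cells thinned to 3500 UMIs, the median Krt10-high cell held a UMI of 6 of the 10 genes at E16.5 and of 7 at P0, against 4 in Krt10 0 cells at both stages and 1 in endothelial cells of these stages. At least 6 genes were found in 36 of 46 Krt10-high cells at E16.5 (78.3%) and in 97 of 103 at P0 (94.2%), and in 5.56% and 16.1% of the Krt10 0 cells. At E13.5 the median epithelial cell held 0 of the genes, 54.6% held none, and no cell held more than 5. The share of all UMIs in the 10 genes was 2.58% in Krt10-high cells at E16.5 (lowest cell 0.969%, highest 5.39%) and 4.25% at P0 (1.72% to 7.98%).

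**Figure D4:**
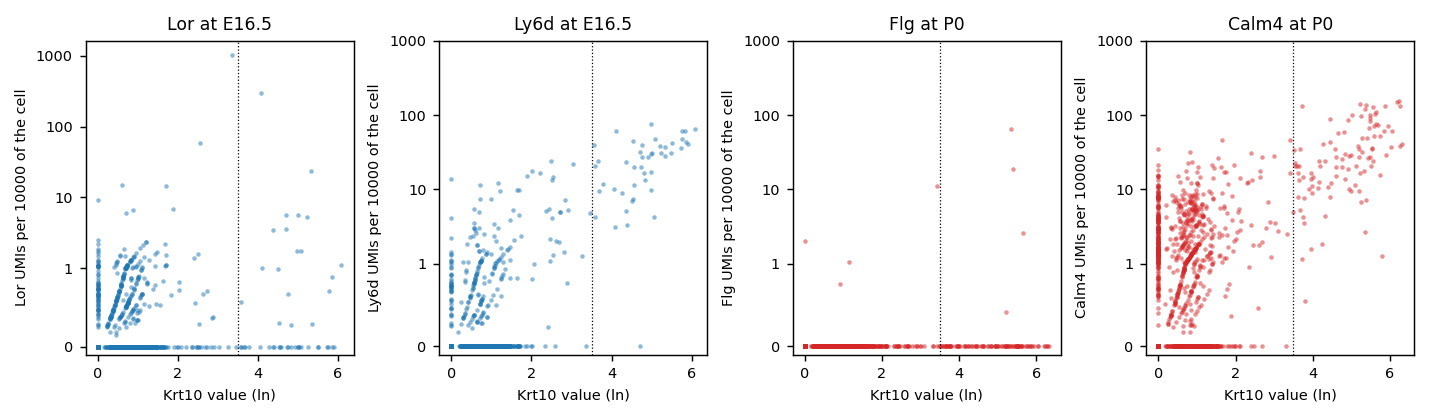
Each point is an epithelial cell, plotted by its Krt10 value (natural log) and its UMIs of Lor or Ly6d at E16.5 and of Flg or Calm4 at P0 per 10000 UMIs of the cell (linear from 0 to 1 and log above). The dotted line marks a Krt10 value of 3.5. Lor and Flg are high in a handful of cells, whereas many cells past the dotted line hold Ly6d (97.8%) and Calm4 (100%).

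The genes also differed in how far their UMIs were concentrated. At P0 the richest 165 of the 1646 epithelial cells held 81.4% of the Calm4 UMIs, 73.5% of Sbsn, 64.9% of Krtdap, 62.8% of Ly6d, 50.5% of Dmkn, 42.3% of Lgals7 and 36.1% of Fxyd3. At E16.5 Ly6d was the most concentrated of these (93.8% in 114 cells), with Lor at 87.2%, Calm4 at 77.1% and Sbsn at 70.5%. Fxyd3 was again the most evenly spread (28.8%), beside Lgals7 (30.6%) and Dmkn (32.0%).

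The Krt10 0 cells with these genes were split by other markers. At P0, 151 of the 622 Krt10 0 cells (24.3%) held Krt79, and they held 36.2% of the Krtdap, 36.8% of the Sbsn and 34.6% of the Dmkn UMIs of the class. Krtdap was at 614 CPM in them and 405 CPM in the remaining cells, and Ly6d at 727 and 577 CPM. Cells with at least 2 inner root sheath genes (46 cells) were lower, with 162 CPM of Krtdap against 492 in the others, 247 of Ly6d against 655 and 2710 of Lgals7 against 4583. At E16.5 the 10 cells with at least 2 of 5 periderm genes (Krt8 and Krt18 left out) were 3.47% of the class and held 23.5% of its Sbsn and 22.3% of its Lor UMIs, but 31 of their 40 Sbsn UMIs and 18 of their 21 Lor UMIs were in 1 cell each, and 44.4 CPM of Sbsn and 14.8 CPM of Lor were left without it, beside 34.5 and 19.4 CPM in the other Krt10 0 cells. Their Calm4 level was 18.0 CPM against 77.6 CPM. At E13.5, 101 of the 220 Krt10 0 cells (45.9%) had at least 2 of these periderm genes. They held 78.9% of the Lor, 68.6% of the Fxyd3 and 60.6% of the Lgals7 UMIs of the class. Lor was at 45.9 CPM in them and 14.1 in the other Krt10 0 cells, Fxyd3 at 84.7 and 44.6, and Lgals7 at 40.8 and 30.5. Krtdap (51.0 and 78.6 CPM) and Dmkn (5.10 and 21.1) were lower in them. Krt10 0 cells with none of these markers and no UMI of Krt1 or Krt77, 137 at E16.5 and 313 at P0, still held 950 and 404 CPM of Krtdap and 3215 and 4265 CPM of Lgals7.

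In the Krt10-high cells, P0 and E16.5 differed gene by gene. Calm4 (3.73, 3.47 to 4.01), Ly6d (3.08, 2.94 to 3.23) and Fxyd3 (2.05, 1.79 to 2.34) were at least 2-fold higher at P0, as was Flg, which was at 0 UMIs at E16.5. These were 4 of 9 genes counted, against 7.06% of 4913 genes. Flg reached the minimum only through its 84 UMIs at P0. Of these 84 UMIs, 57 were in 1 cell, and the 27 left without it were under the minimum. Lor was lower (0.0240, 0.0130 to 0.0409), 1 of 9 against 15.6% of genes. Krtdap, Sbsn, Dmkn and Lgals7 lay between 0.781 and 1.82. Upper follicle RNA moved with the stage as well: Krt79 and Krt17 summed to 1282 CPM in the Krt10-high cells at E16.5 and 3355 CPM at P0, and its part in these ratios was not tested.

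Other genes of the barrier were read from lists of named genes. For the counts below, the shares over all genes in Krt10-high against Krt10 0 cells were 7.55% higher and 12.3% lower at E16.5. They were 6.41% and 20% at P0. Over all epithelial cells from E16.5 to P0 they were 6.1% higher and 14% lower. Of 48 other envelope proteins 16 had a row and 6 had at least 50 UMIs in the E16.5 comparison of Krt10-high with Krt10 0 cells, of which 4 were at least 2-fold higher and 2 lower. Higher were the desmosomal linkers Ppl (3.53-fold, 2.91 to 4.27) and Evpl (6.88-fold) and the protease inhibitors Cst6 (10.7-fold) and Csta1 (3.27-fold), and lower were Cnfn (0.383, 0.279 to 0.513) and Sprr1a (0.397, 0.177 to 0.779). Both of the lower ratios rested on 1 Krt10 0 cell each, which held 642 of 670 Cnfn and 115 of 121 Sprr1a UMIs of the class, and without the richest cell of each group they were 4.21 and 5.56. At P0 5 of 5 were higher, from Ppl (3.70-fold) to Sprr1a (79.8-fold, 41.1 to 177), with Cst6 at 47.8-fold. Without the richest cell of each group Cst6 was at 20.7. Between E16.5 and P0, 6 of 10 envelope genes were at least 2-fold lower over all epithelial cells, among them Cnfn (180 to 1.38 CPM, and 97.0 to 0.312 without the richest cell of each stage), Sprr1a (76.1 to 11.8 CPM, and 25.8 to 7.45 without it) and Hrnr (3.95 to 0.0891 CPM), and 1, Cst6, was higher (3.90-fold, and 2.59-fold without it). For Hrnr a few cells weighed heavily at E16.5: the 6 cells with at least 50 Lor UMIs, 5 of them in the gate, held 56 Hrnr UMIs. Of 7 periderm markers 6 were at least 2-fold lower over the same interval, with a sum of 247 CPM before and 15.8 CPM after, and their part in the Lor and envelope values was not tested.

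Among 21 crosslinking and processing enzymes, 3 of 7 were at least 2-fold higher in Krt10-high cells at E16.5 and 8 of 13 at P0. The shares of all genes were 7.55% and 6.41%. At P0 1 enzyme was lower, against 20% of all genes: Tgm5 (0.452, 0.280 to 0.698), a transglutaminase. The 4 most abundant were the protease Asprv1 (3.07-fold at E16.5, where 1 Krt10 0 cell held 506 of 795 UMIs and 7.74-fold was found without the richest cell of each group, and 6.99-fold at P0), which processes profilaggrin, the hydrolase Blmh (1.48 and 1.27), which degrades filaggrin, Capn1 (1.82 and 1.94) and Klk10 (0.651 and 1.33). Casp14, the caspase of cornifying cells, had 50 UMIs in Krt10-high and 0 in Krt10 0 cells at E16.5, at least 89.0-fold higher when the 0 is set at the 3 UMIs it allows, and was 125-fold higher at P0 (52.6 to 391).

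Of the barrier lipid genes, those at least 2-fold higher were 3 of 5 at E16.5 and 3 of 7 at P0 with 0 lower. The shares of all genes that were higher were 7.55% and 6.41%. Elovl4, which elongates very long-chain fatty acids for ceramides, was 143-fold (78.6 to 289) and 81.1-fold (51.2 to 136) higher (123-fold at P0 without the richest cell of each group), and Abhd5 3.83-fold and 2.86-fold. Smpd1 (0.835 and 0.871), an enzyme of ceramide release, did not pass. The median ratio of the list was 2.199 and 1.82.

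Among the suprabasal keratins, Krt1 was 258-fold (225 to 298) and 414-fold (363 to 476) higher and Krt77 158-fold and 61.2-fold. Desmosome and tight junction genes were higher for 6 of 8 at both stages, against 7.55% and 6.41% of all genes. Jup was at 5.16-fold and 4.85-fold, Pkp1 at 4.26-fold and 5.14-fold, Dsc3 at 10.7-fold and 3.52-fold and Pkp3 at 1.86 and 2.26. At P0 1 gene of this list was lower, against 20% of all genes: Dsg2 (0.215, 0.0681 to 0.519), a desmoglein of simple and basal epithelia. Among the differentiation transcription factors, 10 of 16 were higher at E16.5 and 8 of 16 at P0, against the same 7.55% and 6.41%. Klf4 was at 1.69 and 4.75, Gata3 at 2.41 and 1.26 and Barx2 at 4.02 and 2.07. Ovol2 was lower at both (0.338 and 0.251).

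Relatives of the 10 genes went both ways. Of 11 counted at E16.5 4 were higher and 3 lower, against 7.55% and 12.3% of all genes, and of 16 at P0 5 were higher and 7 lower, against 6.41% and 20% of all genes. The galectins parted ways: Lgals3 was 31.0-fold (25.4 to 38.1) and 22.1-fold (20.5 to 23.9) higher and Lgals1 0.355 and 0.443. Calm2 (0.471 and 0.305), a ubiquitous calmodulin, was not higher where Calm4 was. Of the Ly6 relatives, Lypd3 (39.0-fold and 13.8-fold) and Ly6g6c (15.2-fold and 128-fold, and 65.8-fold and 265-fold without the richest cell of each group) were higher and Ly6e was not (0.540 and 0.304). Fxyd6 was lower at both stages (0.150, or 0.0935 without those cells, and 0.225), and Fxyd1 (0.405) and Fxyd5 (0.0849) at P0, as was Ly6c1 (0.255).

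Basal layer genes were lower for 5 of 9 at E16.5 and 4 of 9 at P0, against 12.3% and 20% of all genes, and Krt15 was higher at P0 (2.33, 2.27 to 2.39). Krt14 (0.617 and 1.17) and Krt5 (0.749 and 1.17) did not pass, and the Krt10-high cells held 2567 and 4653 CPM of Krt14. Within that class at P0, cells with a Krt10 value of 5 or more held less than those of 3.5 to below 5. Krt14 was at 3166 against 5966 CPM and Krt5 at 1025 against 3858 CPM. The Krt10 0 cells of P0 held 3985 CPM of Krt14 and 2170 CPM of Krt5. Cycling markers were lower for 2 of 6 at E16.5 and 6 of 6 at P0, against the same shares. Krt79 was higher at both stages (172-fold, 77.5 to 474, and 8.62-fold, 8.02 to 9.27), but at E16.5 185 of its 193 UMIs in Krt10-high cells were in 1 of the 4 cells that held it, and the ratio was 15.5 without the richest cell of each group. Inner root sheath genes were under the minimum at E16.5 but for Tchh (0.981, or 0.633 without those cells), while at P0 Krt28 (0.0301, or 0.0108 without them) and Krt27 (0.179) were lower and Tchh (2.44) higher.

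Beside the 10 genes, those with the largest ratios of Krt10-high to Krt10 0 cells at E16.5 included Casp14, Krt10 itself, which set the classes, the lipase gene Lipm (51 against 1 UMI, 272-fold, 46.7 to 10967) and Krt1. At P0 they were Skint9 (66 against 0 UMIs, at least 87.8-fold higher against 3 UMIs), Krt10, Krt1, Serpinb12 (282-fold, 95.2 to 1379) and Oas1f (242-fold, 81.6 to 1185). Over 11 groups of stage and Krt10 bin with at least 20 cells, the genes whose log2(CPM + 10) was most like a given gene were listed by Pearson's r, as a description of groups that share 3 libraries. Krtdap was most like Pou2f3 (0.978) and Pkp1 (0.977), Sbsn most like Ces2g (0.991), Dsg1a (0.987) and Krt1 (0.986), and Dmkn most like Lgals7 (0.982), Ndufa4l2 (0.967) and Pou2f3 (0.964). For Calm4 they were Klk11 (0.992), Sptssa (0.984) and Stfa1 (0.984), and for Ly6d Pou3f1 (0.983), Cebpa (0.982) and Lgals3 (0.980). For Lgals7 they were Serpinb5 (0.989), Dmkn and Krt15 (0.969), and for Fxyd3 Plet1 (0.972), Lmna (0.971) and Gm8730 (0.968). The nearest to Lor were Arel1 (0.966), Fam219b (0.963) and Rpp21 (0.959), none of them a gene of the lists, and its r with the other genes of the 10 ran from -0.256 to 0.237. These values for Lor lean on single cells. In the E16.5 bin of 2 to below 3.5, 1 cell held 875 of 979 Lor UMIs. In that of 3.5 to below 5, 1 cell held 192 of 217.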

How the data were processed

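Dorsal skin of E13.5, E16.5 and P0 mice was profiled by droplet 3′ single-cell RNA sequencing with UMIs, 1 library a stage. Per the labels and the methods of the study, Cell Ranger 2.2.0 was run by the authors against mm10, genes seen in under 3 cells and cells of under 1750 genes were dropped, and the authors deposited 1 table of all cells in natural log units, ln(1 + UMIs per 10000). How doublets were treated was not given in the sources used here. The series text gives 15086 cells and the table holds 16235, all with at least 1750 genes.

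UMIs were recovered from the log values, and all 48197283 values above 0 came out whole within 0.001. UMIs were summed over the cells of a stage and class and given per 1000000 UMIs (CPM) with exact 95% Poisson intervals. Ratios of CPM have exact conditional binomial intervals and shares have Clopper-Pearson intervals. A ratio was counted with at least 50 UMIs in both groups together and called at 2-fold. For a count of 0, the limit is 3 counts (UMIs or cells). Shares of cells with a UMI were compared after thinning each cell to 3500 UMIs. Epithelial cells had at least 3 of 5 epithelial genes, and endothelial cells, the background for shares, at least 3 of 5 endothelial genes. Genes beside the 10 were named by rule: of each list the 4 with the most UMIs and those 2-fold or more against the majority, the 5 highest ratios of Krt10-high to Krt10 0 cells at each stage, and the 3 profiles most like each gene. Hrnr and other genes outside this rule were chosen after their values were seen. Cells were not treated as replicates, so there was no test. Python 3.11.15, numpy 2.4.6, scipy 1.17.1 and matplotlib 3.10.9 were used. The ratio step was tested on simulated Poisson counts without differences between cells. That test says nothing of the intervals where a few cells hold most UMIs of a gene. Doublets were called with Scrublet in scanpy 1.11.5 (expected rate 6 percent) as an alternative only. The members, classes and gene lists were chosen with earlier results of these data known. A few genes that the naming rule or the lists include are not reported here.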

Additional observations from a re-analysis of the deposited data

Results flagged for a closer look

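Fxyd3 was set apart because its ratio of Krt10-high to Krt10 0 cells lay above 1 in 1 library and below 1 in another. It was 1.26 at E16.5 (95% interval 1.10 to 1.44, counting error only) and 0.774 at P0 (0.726 to 0.824). The difference was not tested, since each stage was 1 library. Over the alternatives tried, the E16.5 ratio ran from 0.791, with every cell thinned to 3500 UMIs, to 2.11, with a gate of 2 epithelial genes, and the P0 ratio from 0.721 to 0.969, so that the side of 1 held at P0 in all of them and at E16.5 did not.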

How the results depend on the processing

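No paired analysis was possible because each stage was 1 library, and for the same reason no replicate could be left out. No ratio of the 10 genes counted as called moved to the other side of 1. Beside the 10, the lower ratios of Cnfn and Sprr1a at E16.5 did so without the richest cell of each group. Of 63 member counts under alternatives, 60 stayed within 1.5 times, and of 500 ratios 456 did. Where the richest cells were left out, the minimum of 50 UMIs was still applied to all UMIs. Flg could therefore not drop out of the P0 count of Krt10-high against Krt10 0 cells there. The 3 counts that moved were those of genes at least 2-fold higher in Krt10-low than in Krt10 0 cells at P0, which went from 0 to 2 (Calm4 and Ly6d) with a gate of 2 epithelial genes, to 2 (the same genes) with a Krt10 boundary of 4, and to 3 (with Krtdap) for cells of at least 2500 genes. With 10 added to each CPM, Flg was no longer counted as higher at P0 than at E16.5. By stage, the epithelial share was 13.1%, 34.9% and 41.2% with 2 of 5 genes, 3.44%, 18.4% and 24.4% with 4 of 5, and 4.45%, 16.1% and 23.5% after thinning. Epithelial cells that passed the other-lineage filter were 3.89%, 13.8% and 25.03% of all cells of their stage. That share could only fall, since the filter was not applied to the total. Among cells with at least 2500 genes the epithelial share was 7.99% at E13.5 and 57.6% at P0. The Krt10-high share was 2.53% at E16.5 and 4.93% at P0 with 2 of 5 genes, and at P0 4.86% with a boundary of 4, 7.89% after thinning and 7.59% with at least 2500 genes. Leaving out called doublets (125 cells at E16.5 and 146 at P0, of which 1 and 3 were Krt10-high) moved none of these counts, and at E13.5 the caller marked 0 cells and was not used. The alternatives added after the data were seen were subtracting the level in cells with none of the 5 genes, all cells of a Krt10 value below 2 as the low group, and leaving out the richest cell of each gene, also for the genes beside the 10. The cause of these moves was not tested. At this depth Cdsn at every stage and Flg before P0 stayed under the 50 UMIs that a ratio needed.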
